A study of Mus musculus with 2 samples.

Results

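The genes described here are 50 genes of mitosis and cytokinesis, chosen by function from the machinery that drives a cell through chromosome condensation, spindle assembly, chromosome separation and division of the cytoplasm. Of the 50, 49 had a probe set annotated to that gene alone among the 18195 genes represented on the array, and Ccnb1 was not analysed here. Each gene was represented by its probe set of highest mean log2 signal. The measure was the difference in log2 signal, CSF1 array minus control array, given below as a log2 ratio.

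The CSF1 sample was thioglycolate-elicited peritoneal macrophages of 8-week-old male C57BL6 wild type mice kept for 12 h with 100 ng/ml CSF1, and the control sample was such cells kept for 12 h without CSF1. Both were plated after peritoneal lavage and grown to 80% confluence in medium with fetal bovine serum, so the control cells also had serum. CSF1 (macrophage colony-stimulating factor) is the ligand of the receptor tyrosine kinase Csf1r, through which macrophages survive and divide. RNA of each sample was hybridised to 1 Affymetrix Mouse Genome 430 2.0 array, and the labels do not say how many animals went into it. With 1 array per group there is no test, no p-value and no replicate check of any difference below, and precision is limited by that number of arrays.

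In a dividing cell the cyclin-dependent kinase CDK1, bound to A- and B-type cyclins, triggers entry into mitosis. Condensin compacts the chromosomes, kinetochores built on the centromeres attach them to spindle microtubules, and a checkpoint holds the anaphase-promoting complex (APC/C) inactive until all are attached. The APC/C then marks securin and cyclins for destruction, separase opens the cohesin rings, and the central spindle directs the cleavage furrow. Most of these genes are transcribed late in the cell cycle, after the genes of DNA replication. Macrophages elicited by an irritant are largely non-dividing cells that can re-enter the cycle when given CSF1.

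Transcription of many of these genes depends on promoters with CCAAT boxes, bound by NF-Y, and a cell cycle genes homology region (CHR), bound by the DREAM and MuvB complexes. The promoters of the 3 genes past 2-fold with CSF1, Cdk1, Ube2c and Kif23, all higher, are shown beside that of the cyclin gene Ccnb2, whose signal was about equal on both arrays. Each line holds the 250 bases before the RefSeq transcript start, read 5′ to 3′ on the gene's strand. Capitals mark every match, on either strand, to CCAAT, to the CHR letters TTTGAA or TTCGAA, or to the E2F letters TTTCCCGC, TTTCGCGC, TTTGCCGC or TTTGGCGC.
Cdk1 (GRCm38.p6, chr10:69352913-69353162, - strand): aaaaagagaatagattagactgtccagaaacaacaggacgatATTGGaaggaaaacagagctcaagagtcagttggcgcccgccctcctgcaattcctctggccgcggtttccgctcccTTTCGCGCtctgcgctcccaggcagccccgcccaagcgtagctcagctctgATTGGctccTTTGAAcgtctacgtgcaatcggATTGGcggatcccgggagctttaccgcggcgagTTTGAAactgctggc
Ube2c (GRCm38.p6, chr2:164769679-164769928, + strand): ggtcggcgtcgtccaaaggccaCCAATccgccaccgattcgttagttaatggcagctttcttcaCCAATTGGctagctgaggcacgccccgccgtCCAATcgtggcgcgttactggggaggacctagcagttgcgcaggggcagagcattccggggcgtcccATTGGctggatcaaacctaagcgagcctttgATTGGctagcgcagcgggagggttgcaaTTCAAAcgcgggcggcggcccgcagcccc
Kif23 (GRCm38.p6, chr9:61946800-61947049, - strand): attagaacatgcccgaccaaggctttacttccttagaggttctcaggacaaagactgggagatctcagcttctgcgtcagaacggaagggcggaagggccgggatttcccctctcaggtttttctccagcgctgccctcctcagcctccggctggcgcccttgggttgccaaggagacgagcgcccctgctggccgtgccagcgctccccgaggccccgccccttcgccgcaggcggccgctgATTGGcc
Ccnb2 (GRCm38.p6, chr9:70421555-70421804, - strand): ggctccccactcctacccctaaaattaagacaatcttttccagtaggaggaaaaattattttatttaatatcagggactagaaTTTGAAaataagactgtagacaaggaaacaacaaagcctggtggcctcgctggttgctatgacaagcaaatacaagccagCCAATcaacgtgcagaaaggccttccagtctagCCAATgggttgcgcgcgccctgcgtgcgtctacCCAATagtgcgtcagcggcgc

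The Cdk1 promoter held 3 CCAAT boxes, 2 CHR matches and 1 E2F match. The Ube2c promoter held 6 CCAAT matches, 2 of them overlapping in a run of 8 bases, and 1 CHR match that began 29 bases before the transcript start. The Kif23 window held 1 CCAAT match, 7 bases before the start, and no match to the other letters. The Ccnb2 promoter held 3 CCAAT boxes and 1 CHR match. The promoters of Cdk1, Ube2c and Kif23 thus differed among themselves in these letters, and that of Ccnb2 held the same kinds as that of Ube2c.

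RefSeq promoters were found for 42 of the 50 genes, as 45 windows. A CCAAT match lay in 34 of the 45 windows (75.6%), against 33.8% of all 32851 promoter windows of the same length. A CHR match lay in 19 (42.2%), against 17.1% of all windows, and both kinds lay together in 18 (40.0%), against 6.02%. An E2F match lay in 2 windows (4.44%), against 1.86%. The median log2 ratio, with bounds entered at their value, was 0.23 over 17 measured genes whose window held a CHR match and 0.29 over 24 without. For the CCAAT match the medians were 0.25 over 30 genes with it and 0.28 over 11 without it. These matches describe the letters in the windows and were not tested against expression.

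A background level of 142.5 intensity units divided measured from unmeasured signals, and lower values were raised to it. It is the 90th percentile of signals from 92 genes of unrelated tissues, read by 133 probe sets. Of the 49 mitosis genes, 41 were above it on both arrays. Ccnf, Cenpf, Nek2 and Kif23 were above it on the CSF1 array only, Kif4 and Ncapd2 on the control array only, and Cdc25c and Foxm1 on neither. For the 6 genes measured on 1 array the fold is a lower bound. A gene that passes through 1 array alone must differ in that direction, so the counts over measured genes are descriptions.

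The mitosis genes stood slightly higher on the CSF1 array. Of the 47 measured genes, 36 had a log2 ratio above 0, where 50.2% of all 10947 measured genes did. The median log2 ratio was 0.26, or 1.20-fold, with genes measured on 1 array entered at their bound, and 0.23 over the 41 genes above background on both arrays. The median of all measured genes was 0.00. At least 2-fold higher were 3 of the 47 (6.38%), against 0.923% of all measured genes, and 0 were at least 2-fold lower, against 0.713%. The other 44 were under 2-fold or had a bound under it. The differences were thus mostly small ones in 1 direction. Markers of fibroblasts and mesothelium, cells that can divide in culture, had the same median of 0.26 over 10 measured genes, and their part in the result was not tested.

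Over 3770 genes, log2 ratios of probe sets of the same gene disagreed with a pooled SD of 0.29, or 1.22-fold, which covers neither cultures nor animals. Set against this SD, 25 of the 47 genes lay within 1 SD of 0. Another 21 (44.7%) lay above it, against 19.1% of all measured genes, and 1, Kif4, lay below it, against 18.1%. This threshold was chosen after the values were seen. Probe sets of genes of unrelated tissues give another scale for weak signals. Of the 20 such probe sets above the background level on at least 1 array, the log2 ratios ran between -0.93 and 0.70 and 0 were 2-fold apart. These ratios were taken after values were raised to the level, which was set from the same genes, so their range was limited beforehand. Raw signals lay further apart, such as 96.1 and 272 units with and without CSF1 for Gh and 193 and 48.7 units for Prm1. Over the 7 probe sets above the level on both arrays the SD of the log2 ratio was 0.50.

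**Figure D1:**
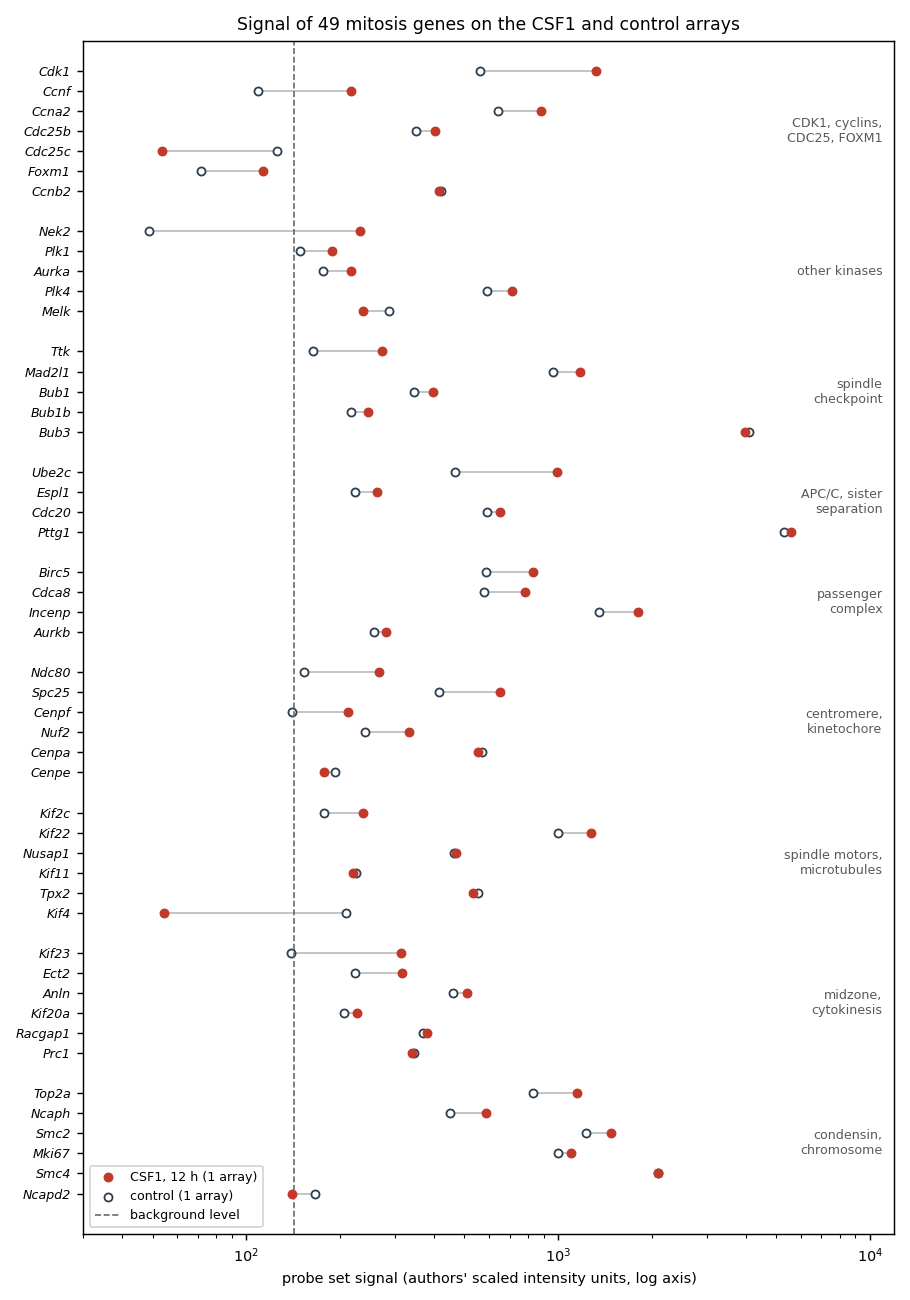
Probe set signal of 49 mitosis and cytokinesis genes on the CSF1 array (filled) and the control array (open), in the authors' scaled intensity units on a log axis, grouped by role and ordered within each role by log2 ratio. The dashed line is the background level of 142.5 units. The widest gaps among genes above it on both arrays are those of Cdk1 (1319 and 561 units) and Ube2c (993 and 466 units), and for most other genes the points lie close together.

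Among the genes above background on both arrays, the kinase at the head of mitotic entry had the largest ratio. Cdk1 had 1319 units on the CSF1 array and 561 units on the control array, 2.35-fold higher (log2 ratio 1.23), on its only probe set. Its partner Ccna2, cyclin A2, which acts from DNA replication until early mitosis, had 881 and 643 units on the CSF1 and control arrays. It was 1.37-fold higher. The mean log2 ratio was 0.41 ± 0.06 over 2 probe sets (here and below, SD between a gene's probe sets above background on both arrays). Ccnb2, cyclin B2, whose protein activates CDK1 in mitosis, did not share this difference. It had 416 units on the CSF1 array and 420 units on the control array, a log2 ratio of -0.02.

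Ccnf, cyclin F, the substrate-binding part of a ubiquitin ligase, had 216 units on the CSF1 array and 109 units on the control array, below background there, and was at least 1.51-fold higher. The phosphatase gene Cdc25b, whose product removes the inhibitory phosphates from CDK1, had 404 and 351 units on the CSF1 and control arrays, a log2 ratio of 0.20. Its relative Cdc25c (53.4 units with CSF1, 125 in the control) and Foxm1 (113 units with CSF1, 71.7 in the control), the transcription factor of late cell cycle genes, were below background on both arrays. Their levels were therefore not resolved. The raw signals of the 4 Foxm1 probe sets, all below background on both arrays, pointed in different directions.

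Among the other mitotic kinases the differences were smaller or lay near background. Aurka, which matures the spindle poles, had 217 units on the CSF1 array and 176 units on the control array, a log2 ratio of 0.30. Plk1, which acts from mitotic entry to cytokinesis, had 188 and 149 units on the CSF1 and control arrays, a ratio of 0.34, both close to background. Plk4, the kinase that starts centriole duplication, had 710 and 594 units with and without CSF1, and 2 of its 3 probe sets gave 0.14 ± 0.16. Nek2, a kinase of centrosome separation, had 231 units on the CSF1 array and 48.5 units on the control array. It was at least 1.62-fold higher, on a probe set that by its name can match several transcripts, and the other 3 probe sets of Nek2 were below background on both arrays. Melk, a kinase widely used as a proliferation gene, went the other way, with 237 units on the CSF1 array and 287 units on the control array, a ratio of -0.27.

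Of the 5 spindle checkpoint genes, Ttk stood out. Its product, the kinase MPS1, recruits the checkpoint to unattached kinetochores, and it had 273 units on the CSF1 array and 163 units on the control array, 1.67-fold higher (0.74). Mad2l1, whose protein binds and inhibits CDC20, had 1172 and 963 units with and without CSF1, a log2 ratio of 0.28. The checkpoint kinase Bub1 (396 units with CSF1, 344 in the control) and the inhibitory subunit Bub1b (246 units with CSF1, 217 in the control) had ratios of 0.20 and 0.18. Bub3, the scaffold that both bind, was at 3966 units on the CSF1 array and 4086 units on the control array, a ratio of -0.04. For this gene 2 of 5 probe sets gave 0.13 ± 0.24. Apart from Ttk, the checkpoint genes lay within the probe set SD.

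The genes of chromosome separation held the second value past 2-fold. Ube2c, the ubiquitin-conjugating enzyme that works with the APC/C, had 993 units on the CSF1 array and 466 units on the control array, 2.13-fold higher (1.09), on its only probe set. The APC/C activator Cdc20 had 650 and 591 units with and without CSF1, and 2 of its 3 probe sets gave 0.26 ± 0.17. Securin, the separase inhibitor encoded by Pttg1, had 5584 units on the CSF1 array and 5312 units on the control array, a log2 ratio of 0.07. The separase gene Espl1 had 262 and 223 units with and without CSF1, a ratio of 0.23. Ube2c was past 2-fold, and the other 3 genes of this group lay within the probe set SD.

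All 4 genes of the chromosomal passenger complex, which corrects faulty attachments and later moves to the central spindle, were above 0, with a median of 0.43. Birc5, survivin, had 830 units on the CSF1 array and 587 units on the control array, 1.42-fold higher. Borealin, encoded by Cdca8, had 785 and 576 units with and without CSF1, 1.36-fold higher, and its 3 probe sets gave 0.74 ± 0.64. The scaffold gene Incenp had 1804 units on the CSF1 array and 1355 units on the control array, 1.33-fold higher. Of its 5 probe sets, the 2 above background on both arrays agreed at 0.43 ± 0.02, and the others were below background on both. The kinase subunit gene Aurkb had 281 and 257 units with and without CSF1, and its 2 probe sets averaged 0.00 ± 0.18. The 3 non-catalytic subunits were past the probe set SD and the kinase was not.

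The kinetochore genes had the highest median of the 9 role groups, 0.52 over 6 genes. Of its genes, 3 encode subunits of the NDC80 complex, the microtubule-binding rod of the outer kinetochore, and all 3 were above the probe set SD. Ndc80 had 266 units on the CSF1 array and 153 units on the control array, 1.74-fold higher. Spc25 had 652 and 415 units with and without CSF1, 1.57-fold higher. With all probe sets averaged Spc25 was at -0.15, since its second probe set, below background on both arrays, went the other way. Nuf2 had 333 and 240 units with and without CSF1, 1.39-fold higher. The fourth subunit gene, Spc24, is not among the 50 and was looked up after these values were seen. It had 213 units on the CSF1 array and 199 units on the control array, a log2 ratio of 0.10, so not every subunit gene showed the difference.

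Cenpf, a large kinetochore protein of late cycle cells, had 211 units on the CSF1 array and 140 units on the control array, just under background, and was at least 1.48-fold higher. The centromeric histone gene Cenpa had 554 and 569 units with and without CSF1, a ratio of -0.04. The kinetochore motor gene Cenpe had 177 units on the CSF1 array and 192 units on the control array, a ratio of -0.12. Cenpa and Cenpe lay within the probe set SD.

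The spindle motors and microtubule proteins had a median of 0.00 over 6 genes. Kif2c, a microtubule-depolymerising kinesin, had 236 and 178 units with and without CSF1, 1.33-fold higher, with 0.29 ± 0.17 over 2 probe sets. The chromosome-arm kinesin Kif22 had 1274 units on the CSF1 array and 999.6 units on the control array, 1.27-fold higher. Nusap1, which bundles microtubules near chromosomes, had 472 and 462 units with and without CSF1, a log2 ratio of 0.03. Tpx2, the activator of Aurora A, had 534 units on the CSF1 array and 552 units on the control array, a ratio of -0.05. For Tpx2, 2 of 4 probe sets gave 0.08 ± 0.19, and the mean of all its probe sets was 0.30. Kif11, the bipolar kinesin that pushes the spindle poles apart, had 220 and 225 units with and without CSF1, a ratio of -0.03, and its 3 probe sets gave -0.19 ± 0.38. The chromokinesin gene Kif4 had 54.6 units on the CSF1 array, below background, and 208 units on the control array, at least 1.46-fold lower on its only probe set. It was the sole member below minus the probe set SD.

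Among the cytokinesis genes, Kif23 was the third past 2-fold. It encodes the kinesin of the centralspindlin complex and had 313 units on the CSF1 array and 139 units on the control array, just under background, so that it was at least 2.20-fold higher. With a stricter background level of 192 units, the 95th percentile of the same genes, its bound was 0.70 on the log2 scale, under 2-fold. Its other 2 probe sets were below background on both arrays. Racgap1, the partner of Kif23 in centralspindlin, had 380 units on the CSF1 array and 368 units on the control array, a log2 ratio of 0.05. A second Racgap1 probe set had 230 and 97.5 units with and without CSF1, at least 1.61-fold higher, so the probe sets of this gene differed.

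Ect2, the exchange factor that activates RhoA at the furrow, had 316 units on the CSF1 array and 222 units on the control array, 1.42-fold higher. Anln, the furrow scaffold anillin, had 511 and 461 units with and without CSF1, a ratio of 0.15. Kif20a, a kinesin that carries the passenger complex to the midzone, had 226 units on the CSF1 array and 206 units on the control array, a ratio of 0.13. The microtubule bundler Prc1 had 340 and 344 units with and without CSF1, a ratio of -0.02, and 0.15 ± 0.24 over 2 probe sets. Within this group Kif23 and Ect2 stood apart from 4 genes that lay within the probe set SD.

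Of the genes that shape chromosomes, Top2a, the topoisomerase that untangles sister chromatids, had 1152 units on the CSF1 array and 832 units on the control array, 1.38-fold higher. The proliferation marker Mki67, whose protein coats mitotic chromosomes, had 1103 and 1001 units with and without CSF1, a log2 ratio of 0.14. Of the condensin subunits, Ncaph had 585 units on the CSF1 array and 450 units on the control array, 1.30-fold higher, and its 2 probe sets gave 0.82 ± 0.62. Smc2 had 1479 and 1231 units with and without CSF1, a ratio of 0.27. Smc4 had 2086 units on the CSF1 array and 2096 units on the control array, a ratio of -0.01, and -0.08 ± 0.29 over 3 probe sets. Ncapd2 had 140 units on the CSF1 array, just under background, and 165.5 units on the control array, at least 1.16-fold lower. Subunits of the same ring therefore had ratios on both sides of 0. Those below 0, Smc4 and the bound of Ncapd2, lay within the probe set SD, so a split of the ring was not resolved.

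**Figure D2:**
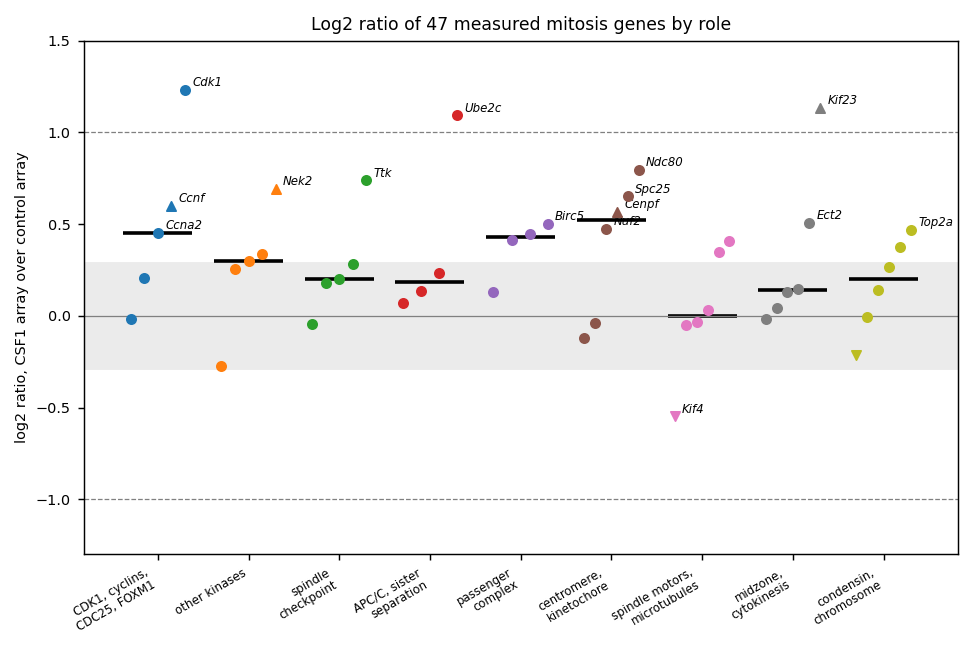
Log2 ratio (CSF1 over control) for the 47 measured mitosis and cytokinesis genes, by role. Circles are genes above background on both arrays, triangles are bounds for genes above it on 1 array and point away from 0, horizontal bars are group medians, the grey band is the pooled SD between probe sets (0.29) and dashed lines mark 2-fold. Cdk1, Ube2c and Kif23 lie above the upper dashed line and no gene lies under the lower one.

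Probe sets of the same gene give a second reading of some of these values. The 49 genes had 113 probe sets, of which 58 were above background on both arrays. Of these 58, 46 had a log2 ratio above 0 and 12 below, with a median of 0.24. For 14 genes at least 2 probe sets could be compared in this way. For 8 of them all had the same sign, and for 6 the signs were mixed. Neither this split nor the 46 of 58 was computed over all genes, so both counts only describe the members. The pooled SD between probe sets of these 14 genes was 0.34. A second probe set of Cdca8 had 479 units on the CSF1 array and 173 units on the control array, a log2 ratio of 1.47. A second probe set of Ncaph had 429 and 179.5 units with and without CSF1, a ratio of 1.26. These probe sets were past 2-fold while the brightest one of each gene was not, and both probe sets had low control signals. Conversely, Cdk1, Ube2c and Kif23 each had only 1 probe set above background on either array, so their differences had no second measurement.

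**Figure D3:**
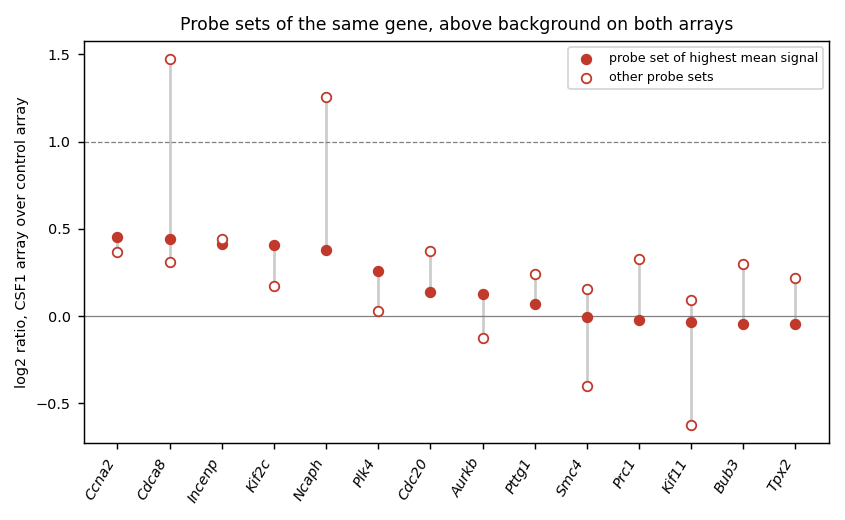
Log2 ratio (CSF1 over control) for each probe set above background on both arrays, for the 14 genes with at least 2 such probe sets. Filled points are the probe set of highest mean signal, used for the gene, and open points are the others; the dashed line marks 2-fold. The probe sets of Ccna2 and Incenp lie close together, and those of Cdca8 and Ncaph are spread widely, with 1 probe set of each above 1.

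The rest of the mitotic machinery was followed in 8 lists of genes that are not among the 50, 142 of which had a probe set. Of 127 measured, 83 were above 0, with a median of 0.09, 3 were at least 2-fold higher and 1 was at least 2-fold lower. Over all measured genes these shares were 50.2%, 0.923% and 0.713%. The counts above 0 in each list below stand beside the same 50.2%. Of the other centromere and kinetochore genes, 20 of 26 were above 0, with a median of 0.24, and of 0.18 over the 19 above background on both arrays. Cenpo, a subunit of the inner kinetochore, had 299 units on the CSF1 array and 138 units on the control array, at least 2.10-fold higher. Its neighbour Cenpk had 339 and 169.6 units with and without CSF1, 1.998-fold higher, and the checkpoint gene Zwilch had 390 and 207.5 units, a log2 ratio of 0.91.

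Regulators of mitotic entry and exit had a median of 0.18, with 13 of 16 above 0. Cdca3, a cell division cycle associated gene, had 571 units on the CSF1 array and 284 units on the control array, 2.01-fold higher. Cdc25a, the phosphatase that also acts at the start of DNA replication, had 343 and 188 units with and without CSF1, a log2 ratio of 0.87, and the CDK-binding subunit gene Cks1b was at 0.61. In the DREAM and MuvB list the median was 0.06, with 6 of 11 above 0. There the E2F partner gene Tfdp2 had 428 units on the CSF1 array and 209 units on the control array, 2.05-fold higher. Lin37 and the pocket protein gene Rbl1 were at 0.59 and 0.42.

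APC/C subunits and adaptors had a median of 0.06 over 17 genes, and 16 of them lay within the probe set SD. The exception was Anapc11, the RING subunit, with 1352 units on the CSF1 array and 743 units on the control array, a log2 ratio of 0.86, followed by Anapc2 at 0.28 and Anapc15 at 0.19. Cohesin and its regulators had a median of 0.05, with 8 of 15 above 0. In that list the cohesin loader gene Nipbl was at -0.88 and its partner Mau2 at 0.55, while the centromere protector gene Sgo1 had a bound of 0.59. The 4 other condensin subunits had a median of 0.21, with Ncapd3 at 0.67, Ncapg2 at 0.26 and Ncapg at 0.17.

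Other spindle and centrosome genes had a median of 0.07, with 16 of 25 above 0. In that list Cenpj, a centriole assembly gene, had 197 units on the CSF1 array and 402 units on the control array, 2.04-fold lower. The microtubule-binding receptor gene Hmmr was at 0.68, and the kinesin gene Kif18a had a bound of 0.51. Other cytokinesis genes, many of which also serve membrane traffic outside mitosis, had a median of -0.04, with 5 of 13 above 0. There the midbody gene Cep55 was at 0.39, the RhoA exchange factor gene Arhgef2 at 0.35 and the septin gene Sept2 at -0.32.

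Genes of DNA replication, transcribed earlier in the cell cycle, were taken as a comparison. Of 47 measured licensing and fork genes, 40 (85.1%) were above 0, against 50.2% of all measured genes. The median log2 ratio was 0.46, or 1.37-fold, against 0.26 for the mitosis genes. At least 2-fold higher were 6 of these 47 (12.8%), against 3 of 47 mitosis genes and 0.923% of all measured genes. Above the probe set SD lay 27 (57.4%), against 21 mitosis genes (44.7%) and 19.1% of all measured genes. The largest ratio among replication genes was that of the helicase subunit gene Gins2 at 1.58, followed by Mcm2 at 1.33 and Gins1 at 1.18. The others past 2-fold were Mcm7 at 1.13, Lig1 at 1.07 and Timeless at 1.03. With 1 array per group the difference between the lists has no test.

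**Figure D4:**
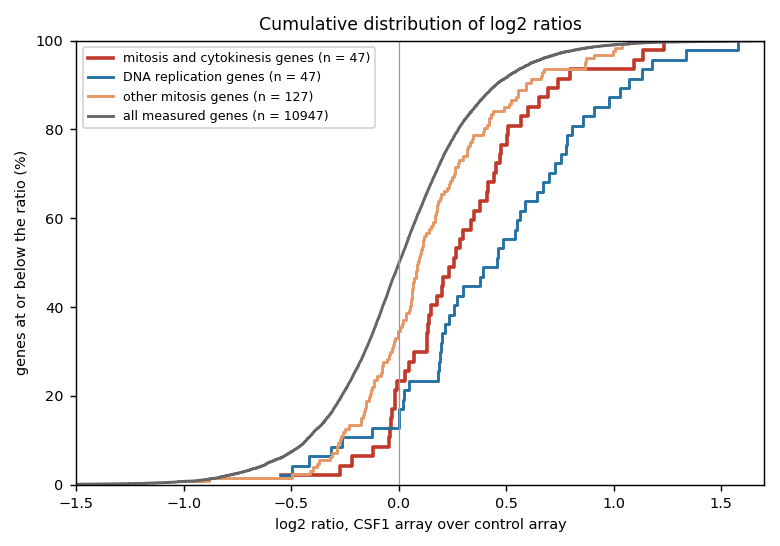
Cumulative distribution of the log2 ratio (CSF1 over control) for 47 mitosis and cytokinesis genes, 127 other mitosis genes, 47 DNA replication genes and all 10947 measured genes, with bounds entered at their value. The mitosis genes (median 0.26) lie between the replication genes (0.46) and all genes (0.00), and the other mitosis genes (0.09) lie nearer to all genes.

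Markers of cell types were read on the same arrays. All 10 macrophage markers were above background on both arrays, with 2 of 10 above 0, a median log2 ratio of -0.16 and a summed signal of 139767 units on the CSF1 array and 164913 units on the control array. Of 12 fibroblast and mesothelial markers, 9 were above background on both arrays, Upk3b on the CSF1 array only and Msln and Krt19 on neither. Of these 10 measured markers, 9 were above 0, with a median of 0.26. Over all 12 markers the summed signal was 66218 units on the CSF1 array and 52444 units on the control array. In RNA of a whole culture more dividing cells and more RNA per cell cannot be told apart. T and NK cell markers were measured for 5 of 8 genes with a probe set, with a median of -0.04 and Cd3e, Cd4 and Ncr1 below background. Over all 8 the sums were 1758 and 1807 units on the CSF1 and control arrays. B cell markers had a median of -0.12 over 5 measured genes, and with Blk, which was below background, the 6 summed to 3225 and 3600 units with and without CSF1. Mast cell markers had a median of -0.20 over 5 measured genes, and with Mcpt4, which was below background, the 6 summed to 2380 and 2736 units with and without CSF1. Of the neutrophil and eosinophil markers, S100a8 (0.18) and Siglecf (-0.21) were the measured ones.

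The median signal of the 45101 probe sets was 91.6 units on the CSF1 array and 101 units on the control array. The ratio of 3′ to 5′ signal, a sign of RNA integrity, was 1.38 and 1.35 for Actb and 1.40 and 1.03 for Gapdh on the CSF1 and control arrays, and its part in these values was not tested. Over the 18 hybridisation spike probe sets the log2 ratio averaged -0.29 ± 0.13 (SD between spikes). Centring on them put the median of all genes at 0.28 and the mitosis genes at 0.24 above that median, so each "higher" above is relative to the other genes under the authors' scaling.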

How the data were processed

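Probe set intensity values on a linear scale were deposited for 2 Affymetrix Mouse Genome 430 2.0 arrays, 1 CSF1 and 1 control, grouped by the labels. Per the series' design text, the authors used GeneSpring 6.2. Both arrays had the same mean of 500.003 units once 2% of values were trimmed at each end. The summarization of probes is a step not given in the sources used. Detection calls were not used.

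Symbols came from the platform annotation: 34958 probe sets had 1 symbol, 932 several and 9211 none. All 50 members matched the RefSeq gene table by Entrez ID, and 0 symbols differed. Signals were taken to log2 with no further scaling. Background genes numbered 101, of which 92 had a probe set; Oxt and Cela1 among them were well above the level on both arrays. The members and lists were chosen with earlier results of these data known. All members were described; of each pathway list and the replication list, up to 3 measured genes with the largest absolute log2 ratio and any past 2-fold were named. Promoters are from RefSeq (GRCm38.p6). The ratio was tested on simulated data with known changes past 2-fold, in genes well above background on both arrays. All probe sets of a gene were given the same change there, so the choice between probe sets that disagree was not tested. Weak signals and small differences, as most of those here are, were not covered by that test. Computations ran in Python 3.11.15 with pandas 2.3.3, numpy 2.4.6, statsmodels 0.14.6 (loess), scipy 1.17.1 and, for figures, matplotlib 3.10.9. Probe sets ending in _s_at, _x_at or _a_at, which can match several transcripts, represented 21 of the 47 measured members.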

Additional observations from a re-analysis of the deposited data

How the results depend on the processing

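For each alternative, ratios are given relative to that alternative's median over measured genes. Quantile normalization, centring on the measured probe sets' median or on the spikes, a loess correction (span 0.3), and a background level set without Oxt and Cela1, an alternative chosen after seeing the data, left all 47 genes within the probe set SD of their value. Either centring is a constant shift that is removed again with the median. For genes well above background on both arrays it could hardly change a ratio. Centring on the spikes also put the background level at 164.7 units. With that level Plk1 went from 0.34 to 0.20 and Ndc80 from 0.80 to 0.70. The number at least 2-fold higher was 3 under 5 alternatives, in which 0.897% to 1.30% of all measured genes were. It was 2 under centring on the spikes, the level at the 95th percentile and genes above background on both arrays. The shares of all measured genes there were 0.769%, 0.613% and 0.742%. The number of members was 4 with no background level, with the level at the median of all probe sets and with probe sets not marked as shared. With no background level 9.69% of all 18195 genes were at least 2-fold higher, so the 4 of 49 members there were not an excess. With the level at the median the share of all measured genes was 1.56%, and with probe sets not marked as shared 1.03%. Kif23 was the gene lost in the 3 settings that gave 2, where its control signal lies under the level. The mean of all probe sets left 30 genes measured, 23 of them above 0, with Kif23 not among them, and put Pttg1 at 1.31 through a probe set below background on the control array. The level at the 95th percentile gave a median of 0.19. A fold threshold of 1.5 gave 8 higher genes of the 47. The share of all measured genes past that threshold was not computed, so this count shows no excess. With no background level 2 genes were at least 2-fold lower, and with the level at the median 1 was. The shares of all genes at least 2-fold lower in these settings were not computed. Cdk1 stayed between 1.20 and 1.24 and Ube2c between 1.07 and 1.105 under all 11 alternatives. Each has 1 probe set, not marked as shared and above every level used. The alternatives of background level, probe set choice and centring could therefore move them only by the median of all genes. Array number and signal near background limit all values. No paired analysis was possible because each group has 1 array.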
